A study of Mus musculus with 21 samples.

Results

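The HoxB genes Hoxb2, Hoxb3, Hoxb4, Hoxb5, Hoxb6, Hoxb7 and Hoxb8 were followed across 6 groups of mouse bone marrow libraries. They are the 7 rows, of 54446 gene IDs in the deposited count table, whose Ensembl ID maps to these symbols. The groups were long-term haematopoietic stem cells (LT-HSC) and the multipotent progenitor populations MPP2 and MPP3, each from Phf6 wild-type (WT) and Phf6 knockout (KO) mice of strain C57BL/6 aged 12 weeks. LT-HSC were represented by 2 WT and 3 KO libraries, and MPP2 and MPP3 by 4 of each genotype. Each library came from 100 to 200 cells, sorted by antibodies to CD48, CD150, cKit, Sca-1 and lineage antigens; Flt3 was not stained. The knockout allele, and any promoter or Cre that drives it, is not given in the sources used here. Phf6 encodes a chromatin-bound zinc finger protein that is mutated in T-cell leukaemia.

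Hox genes encode transcription factors that bind DNA through the homeodomain, a helical fold encoded by the homeobox. They lie in clusters, all in one direction, and in the embryo genes at one end of a cluster are used earlier and further forward in the body than genes at the other. In blood, Hoxb4 is known for expanding stem cells when overexpressed, and Hoxb5 is known as a marker of long-term stem cells. HOX proteins bind DNA together with TALE partners of the PBX and MEIS families.

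The 7 genes lie on chromosome 11 within 72.1 kb in mm10, all on the plus strand, from Hoxb8 (chr11:96281905-96285315) through Hoxb7 (chr11:96286623-96290162), Hoxb6 (chr11:96292476-96301569), Hoxb5 (chr11:96303336-96306121), Hoxb4 (chr11:96318267-96321638) and Hoxb3 (chr11:96323326-96347930) to Hoxb2 (chr11:96350525-96354012), by the GENCODE M21 annotation. The sequences of 4 members below show how alike they are where a short read could be assigned to the wrong one. Each is the stretch of 60 bases at the end of the homeobox, in exon 2 of the gene, that codes for the DNA-recognition helix, from the GENCODE M21 transcripts. Capitals mark the 18 bases that code for the invariant core of that helix.
Hoxb2: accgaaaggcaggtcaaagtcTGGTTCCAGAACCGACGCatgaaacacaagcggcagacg
Hoxb6: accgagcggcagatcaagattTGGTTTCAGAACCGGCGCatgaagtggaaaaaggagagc
Hoxb7: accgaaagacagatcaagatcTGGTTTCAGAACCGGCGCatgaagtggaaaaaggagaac
Hoxb8: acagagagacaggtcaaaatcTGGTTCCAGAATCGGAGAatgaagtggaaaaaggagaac

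Over the whole homeobox of 180 bases, identity ran from 62.2% between Hoxb2 and Hoxb8 to 88.9% between Hoxb6 and Hoxb7. Exact sharing of 50-base windows with other Hox coding genes was nevertheless rare, at 3 of 2516 windows for Hoxb4, 2 of 1908 for Hoxb6 and 0 for each of the other members. Sharing with overlapping genes was larger. Exons of other genes covered 52.9% of the exon bases of Hoxb3, 27.3% of those of Hoxb2 and 3.59% of those of Hoxb5. Hoxb3os and Hoxb5os run antisense through the cluster, and since the strand setting of the counting is not given in the sources used here, reads of a gene and of its antisense partner cannot be told apart. Exons of other genes also covered 76.2% of the exon bases of Hoxb3os and 14.4% of those of Hoxb5os. Values of Hoxb2, Hoxb3 and Hoxb3os are therefore uncertain.

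The libraries held 18892723 to 31611366 counts, with a median of 26158938. Levels are given as CPM, counts scaled to the TMM-adjusted library size, and intervals and tests cover the spread between libraries, which may share mice. Phf6 was lower in the KO libraries of every population, by a log2 fold change of -3.96 for stem cells, -3.54 for MPP2 and -3.86 for MPP3 (edgeR adjusted p = 0.0371, 0.0104 and 0.00376). The LT-HSC call was lost in each omission of 1 library (adjusted p = 0.111 to 0.571), and Phf6 was 124 CPM or more in WT LT-HSC and 13.2 CPM or less in KO LT-HSC. Markers of stem cells summed to 2189 to 2776 CPM over 15 genes in LT-HSC, 782 to 2180 in MPP2 and 406 to 1176 in MPP3. Immunoglobulin transcripts made up 45.8% of counts in KO MPP2 replicate 1 and 25.8% in KO MPP3 replicate 1, and rRNA-like transcripts 10.3% in KO MPP3 replicate 2. Summed levels of 10 granulocyte-monocyte markers were 115 to 294 CPM in LT-HSC, 345 to 5094 in MPP2 and 749 to 5790 in MPP3, and those of 8 lymphoid-primed markers 22.6 to 103, 16.0 to 1758 and 1611 to 2946. The 9 megakaryocyte-erythroid markers summed to 508 to 1951 CPM in LT-HSC, 850 to 4582 in MPP2 and 28.5 to 712 in MPP3. Of the 9, 5 were called higher in LT-HSC than in MPP3, where 6.41% of all genes were called. All 9 were called higher in MPP2 than in MPP3, against 6.87% of all genes. Between LT-HSC and MPP2 0 of 9 were called, against 7.82% of all genes. Within MPP2 the sum of the 9 markers was 850 to 2073 CPM in replicates 1 and 2, which have low title numbers. It was 3722 to 4582 in replicates 3 and 4, which have high ones. The part of these markers in the results below was not tested. Neutrophil markers (8 genes) summed to 4489 CPM in WT LT-HSC replicate 2 and 15022 in KO MPP2 replicate 1. The 3 libraries rich in immunoglobulin or rRNA-like counts stand apart, and their part in the results below was not tested beyond leaving them out. In such bulk libraries fewer cells that transcribe a gene and less RNA per cell cannot be told apart.

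Hoxb5 was higher in LT-HSC than in both progenitor populations. Its level was 18.4 and 16.9 CPM in the WT LT-HSC libraries and 21.2, 14.6 and 15.7 CPM in the KO LT-HSC libraries. In MPP2 it was 1.41, 1.35, 0.92 and 1.76 CPM in WT and 0, 0.607, 0.568 and 0 CPM in KO. In MPP3 it was 1.39, 0.979, 0.211 and 0.181 CPM in WT and 0.0434, 0.74, 0 and 0 CPM in KO. Every LT-HSC library lay far above every progenitor library, whichever the genotype. The mean over both genotypes was 17.4 ± 2.56 CPM in LT-HSC (SD, n = 5), against 0.827 ± 0.652 in MPP2 (n = 8) and 0.443 ± 0.526 in MPP3 (n = 8). The log2 fold change was 4.75 ± 0.92 (SE) against MPP2, with an edgeR quasi-likelihood adjusted p of 0.00325, and 5.61 ± 0.96 against MPP3, with an adjusted p of 0.000961. Both calls held in each of the 13 fits that left out 1 library and in each of the 11 other alternatives.

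**Figure D1:**
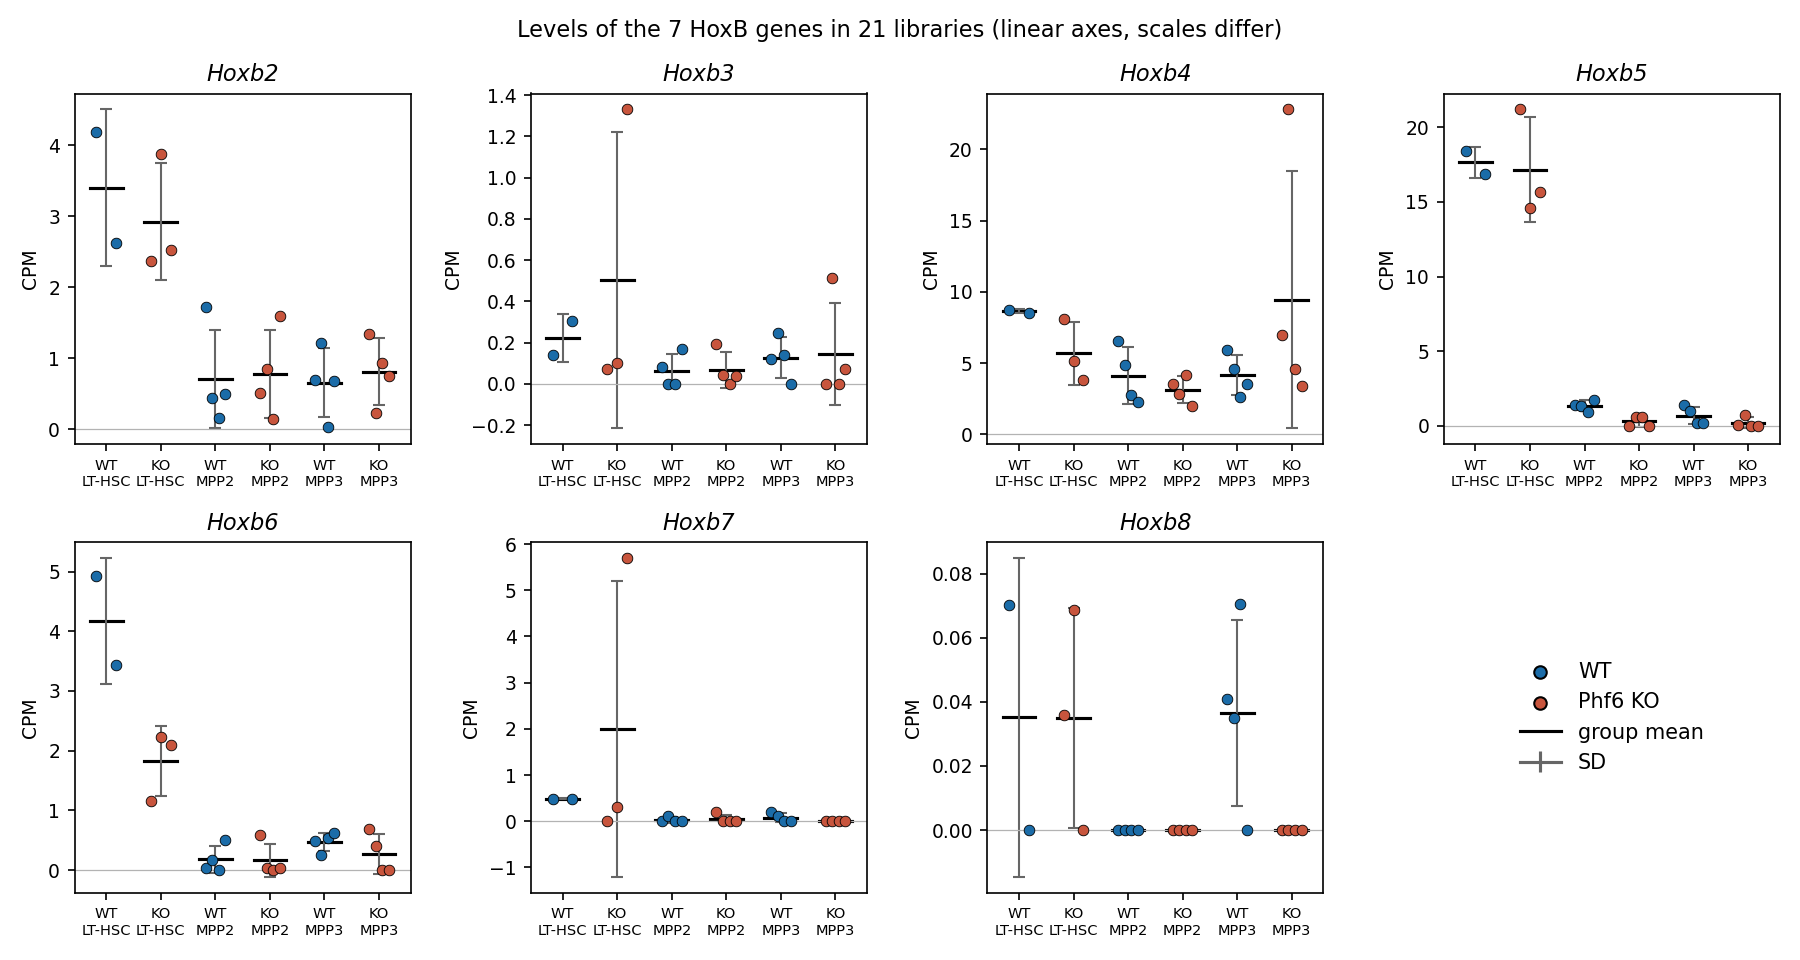
Level (CPM, linear axis with its own scale in each panel) of each of the 7 HoxB genes in the 21 libraries, by population and genotype; points are libraries, black bars group means and grey bars the SD. Hoxb5 lay between 14.6 and 21.2 CPM in LT-HSC and at or under 1.76 CPM in every MPP2 and MPP3 library.

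Within single genotypes the direction was alike but the test was met in KO alone. Between KO populations Hoxb5 had a log2 fold change of 5.81 against MPP2 and 6.55 against MPP3 (edgeR adjusted p = 0.0286 and 0.013), and the first was lost in 5 of 7 omissions of 1 library, with adjusted p up to 0.0877. Between WT populations it was 3.70 and 4.67 (edgeR adjusted p = 0.199 and 0.121), with only 2 WT LT-HSC libraries. Of all genes, 0.63% and 1.1% were called in these WT comparisons, where the members called numbered 0. At an unadjusted edgeR p under 0.05 the members numbered 3 and 2 of 6 tested, against 2744 and 1941 of 21100 genes. In the KO comparisons 1.81% and 2.64% of all genes were called, and Hoxb5 was the 1 member called. The difference between the genotypes was itself not called (edgeR adjusted p = 1 for the KO effect in LT-HSC against that in MPP2 and in MPP3), and neither was any gene (0%).

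Hoxb6, the neighbour of Hoxb5, followed at a lower level. It was 4.92 and 3.43 CPM in WT LT-HSC and 1.15, 2.23 and 2.1 CPM in KO LT-HSC, and ran from 0 to 0.581 CPM in MPP2, with a median of 0.0404, and from 0 to 0.695 CPM in MPP3, with a median of 0.444. No progenitor library reached the lowest LT-HSC library. Against MPP2 the log2 fold change was 4.03 ± 1.13 (edgeR adjusted p = 0.0339), a call that sat close to the threshold. Among the 13 omissions of 1 library it was kept only without WT MPP2 replicate 4 or KO MPP2 replicate 1, and lost in 11. Of the 11 alternatives of other kinds, 10 kept it. Against MPP3 the log2 fold change was 2.94 ± 1.08 (edgeR adjusted p = 0.123). There 0 of 13 omissions and 3 of 11 other alternatives passed the threshold.

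Hoxb2, the member nearest the early end of the cluster, was 4.18 and 2.62 CPM in WT LT-HSC and 2.37, 3.87 and 2.53 CPM in KO LT-HSC. It ran from 0.142 to 1.73 CPM in MPP2, with a median of 0.51, and from 0.0352 to 1.35 CPM in MPP3, with a median of 0.72. The LT-HSC libraries again did not overlap with the progenitors, but the test was not met, with log2 fold changes of 2.08 ± 0.71 against MPP2 and 2.10 ± 0.71 against MPP3 (edgeR adjusted p = 0.0847 and 0.0926).

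Hoxb4 was detected in every library, from 1.96 to 22.8 CPM, and missed the edgeR test between populations. It was 8.75 and 8.53 CPM in WT LT-HSC and 8.08, 5.14 and 3.8 CPM in KO LT-HSC. In MPP2 it ran from 1.96 to 6.57 CPM with a median of 3.19, and in MPP3 from 2.64 to 22.8 CPM with a median of 4.6. With the genotypes together the populations overlapped, and the highest value belonged to KO MPP3 replicate 2, the library rich in rRNA-like counts. Within WT they did not: both LT-HSC libraries lay above every MPP2 library, at 2.27 to 6.57 CPM, and every MPP3 library, at 2.64 to 5.91 CPM. The KO LT-HSC libraries overlapped with KO MPP2, at 1.96 to 4.19 CPM, and with KO MPP3, at 3.41 to 22.8 CPM. The log2 fold change of LT-HSC was 0.97 ± 0.42 against MPP2 (edgeR adjusted p = 0.179) and 0.16 ± 0.43 against MPP3 (edgeR adjusted p = 0.92). Without KO MPP3 replicate 2 the second was 0.62 (adjusted p = 0.328). In WT alone the log2 fold changes were 1.07 ± 0.63 and 1.05 ± 0.63 (edgeR adjusted p = 0.505 and 0.707), and in KO alone 0.86 ± 0.57 and -0.73 ± 0.58 (edgeR adjusted p = 0.488 and 0.611).

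Most LT-HSC counts of Hoxb7 and Hoxb3 came from 1 library, KO LT-HSC replicate 3. It is the only LT-HSC library with a high title number (212). Within LT-HSC that library and a high title number cannot be told apart. Hoxb7 was 0.492 and 0.476 CPM in WT LT-HSC and 0, 0.309 and 5.7 CPM in KO LT-HSC, so that 171 of its 208 LT-HSC counts came from KO LT-HSC replicate 3. It had 6 counts in all MPP2 libraries and 8 in all MPP3 libraries. Of the 5 LT-HSC libraries, 4 lay above every progenitor library, of which the highest was 0.204 CPM. Against MPP2 the log2 fold change was 4.63 ± 1.51 (edgeR adjusted p = 0.0755). The log2 fold change against MPP3 was 5.66 ± 1.60 (edgeR adjusted p = 0.0457). That call was lost without KO LT-HSC replicate 3 (3.82, adjusted p = 0.173) and with the replicate block (5.40, adjusted p = 0.132), and of the 13 omissions of 1 library it was kept in 2, those of KO LT-HSC replicate 1 and of KO LT-HSC replicate 2. Hoxb3 was 0.141 and 0.306 CPM in WT LT-HSC and 0.0719, 0.103 and 1.33 CPM in KO LT-HSC, with 40 of 58 counts in the same library. No test of Hoxb3 was met.

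Hoxb8 was at the limit of detection. It had 5 counts over the LT-HSC libraries, 4 over MPP3 and 0 over MPP2, where 0 counts allow a level of up to 0.015 CPM (3 counts over the group, counting error only). It did not pass the filter on low counts and was not tested.

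Of the 7 members, 6 were tested and 2 were called in each comparison of LT-HSC with a progenitor, Hoxb5 and Hoxb6 against MPP2 and Hoxb5 and Hoxb7 against MPP3. Over all 21100 genes tested, 7.82% were called in the first and 6.41% in the second. Groups did not overlap for 3 of 7 members in both, Hoxb2, Hoxb5 and Hoxb6, and 2.83% and 3.34% of all genes were higher in every LT-HSC library. Within WT, 5 of 7 members did not overlap in either comparison, Hoxb4 and Hoxb7 besides these 3, against 15.3% and 14.2% of all genes that were higher in both WT LT-HSC libraries. Between MPP2 and MPP3 no member was called by edgeR, against 6.87% of all genes. At an unadjusted p under 0.05 there was 1 member, Hoxb4, against 4683 of 21100 genes. The log2 fold change of Hoxb4 was -0.80 ± 0.38 (edgeR adjusted p = 0.216). That of Hoxb5 was 0.86 ± 0.81 (edgeR adjusted p = 0.59) and depended on a few libraries. It was 2.55 without KO MPP3 replicate 2 (adjusted p = 0.0777) and 3.69 without all 3 libraries that stand apart, where it passed the threshold (adjusted p = 0.0477). With low title numbers only it was 0.05 (adjusted p = 1), and with high ones only 4.36 (adjusted p = 0.112). Within WT and within KO the same comparison also called 0 members, against 1.2% and 0.886% of all genes. There 0 and 1 member had an unadjusted p under 0.05, against 2858 and 3061 of 21100 genes.

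**Figure D2:**
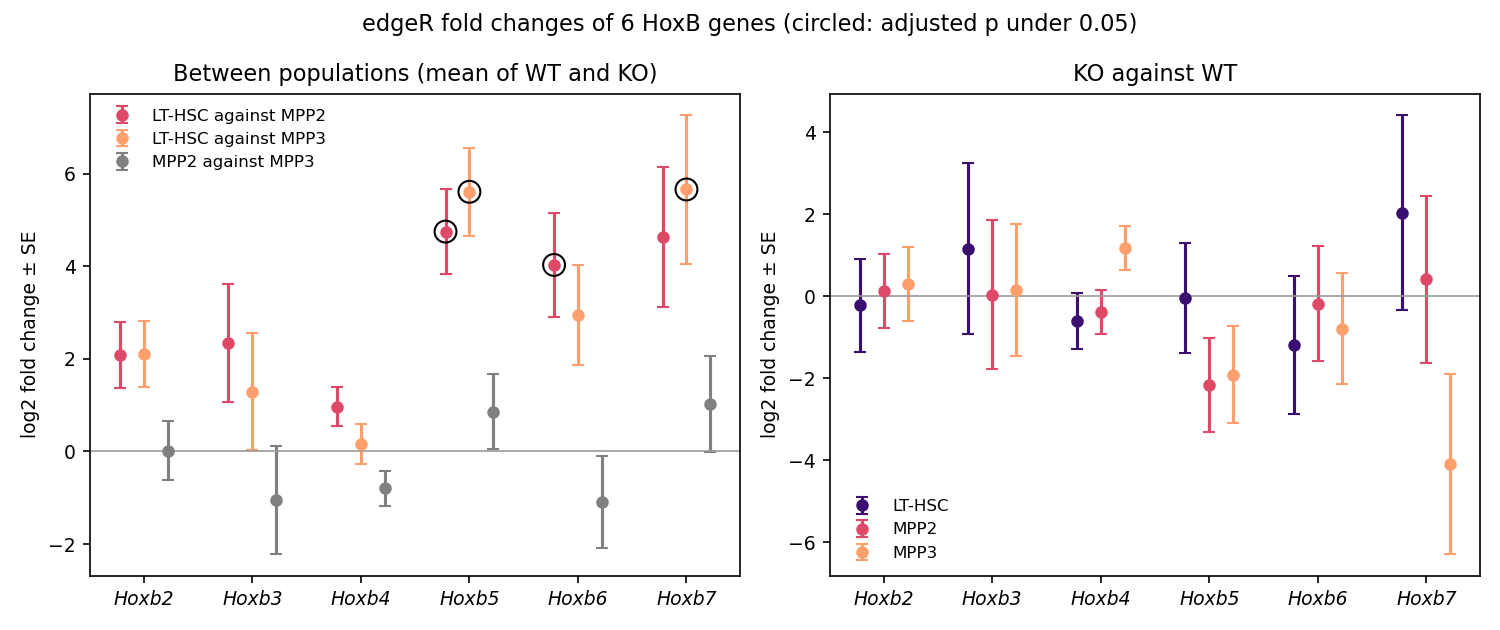
Log2 fold change with its SE (edgeR, 21 libraries in 1 fit) of the 6 HoxB genes tested, between populations at left and between KO and WT at right; circles mark adjusted p under 0.05. Hoxb5 is circled in both comparisons of LT-HSC, and no point is circled at right, where several change sign with the processing.

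The make-up of HoxB transcripts differed between stem cells and progenitors. Hoxb5 took 49.9% to 64.4% of the summed CPM of the 7 genes in LT-HSC libraries, 0% to 33.9% in MPP2 and 0% to 15.7% in MPP3. Hoxb4 took 12.2% to 26.5% in LT-HSC, 43.5% to 85.5% in MPP2 and 61.8% to 92.4% in MPP3. For both genes the LT-HSC range lay apart from both progenitor ranges. The shares within a library depend on one another. The mean level of Hoxb4 itself was not lower in LT-HSC, at 6.86 CPM against 3.62 in MPP2 and 6.8 in MPP3. The summed level was 26.4 to 37.0 CPM in LT-HSC, 3.64 to 9.83 in MPP2 and 3.63 to 24.7 in MPP3. The highest MPP3 sum was that of KO MPP3 replicate 2, the library rich in rRNA-like counts, and the next was 9.03.

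**Figure D3:**
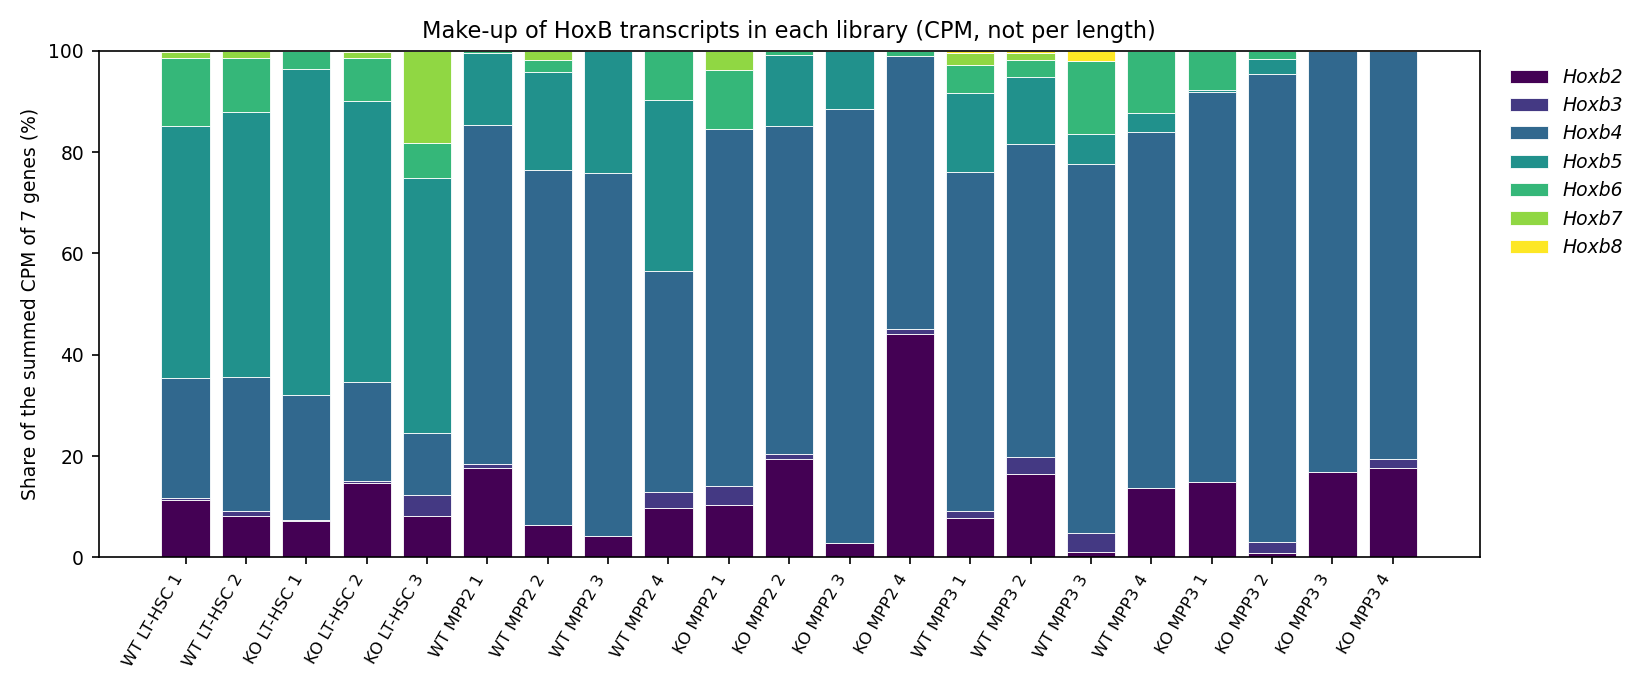
Share (%) of the summed CPM of the 7 HoxB genes taken by each gene, 1 bar per library. Hoxb5 holds about the middle of each LT-HSC bar, 49.9% or more, and Hoxb4 holds 43.5% or more of each MPP2 and MPP3 bar.

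Per length the order along the cluster was not monotonic. In LT-HSC the mean level per kb of exon was 6.23 CPM for Hoxb5, 2.67 for Hoxb4, 1.41 for Hoxb6, 0.904 for Hoxb7, 0.893 for Hoxb2, 0.092 for Hoxb3 and 0.0133 for Hoxb8. Hoxb5 exceeded Hoxb4, and Hoxb4 exceeded Hoxb6, by more than their SDs of 0.917, 0.875 and 0.739. Hoxb6 exceeded Hoxb2 by less than its own SD and by more than the SD of Hoxb2, 0.242. The place of Hoxb7 (SD 1.56) was set by KO LT-HSC replicate 3, without which Hoxb7 was 0.207 ± 0.148 and Hoxb2 0.935 ± 0.258 CPM per kb (SD, n = 4). Hoxb3 without that library was 0.0365 CPM per kb. Hoxb2 exceeded its neighbour Hoxb3 by more than their SDs with that library and without it, with the reserve on overlapping exons given above. In MPP2 and MPP3 the highest level per kb was that of Hoxb4, at 1.41 and 2.65 CPM, and that of Hoxb5 was 0.297 and 0.159 CPM.

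**Figure D4:**
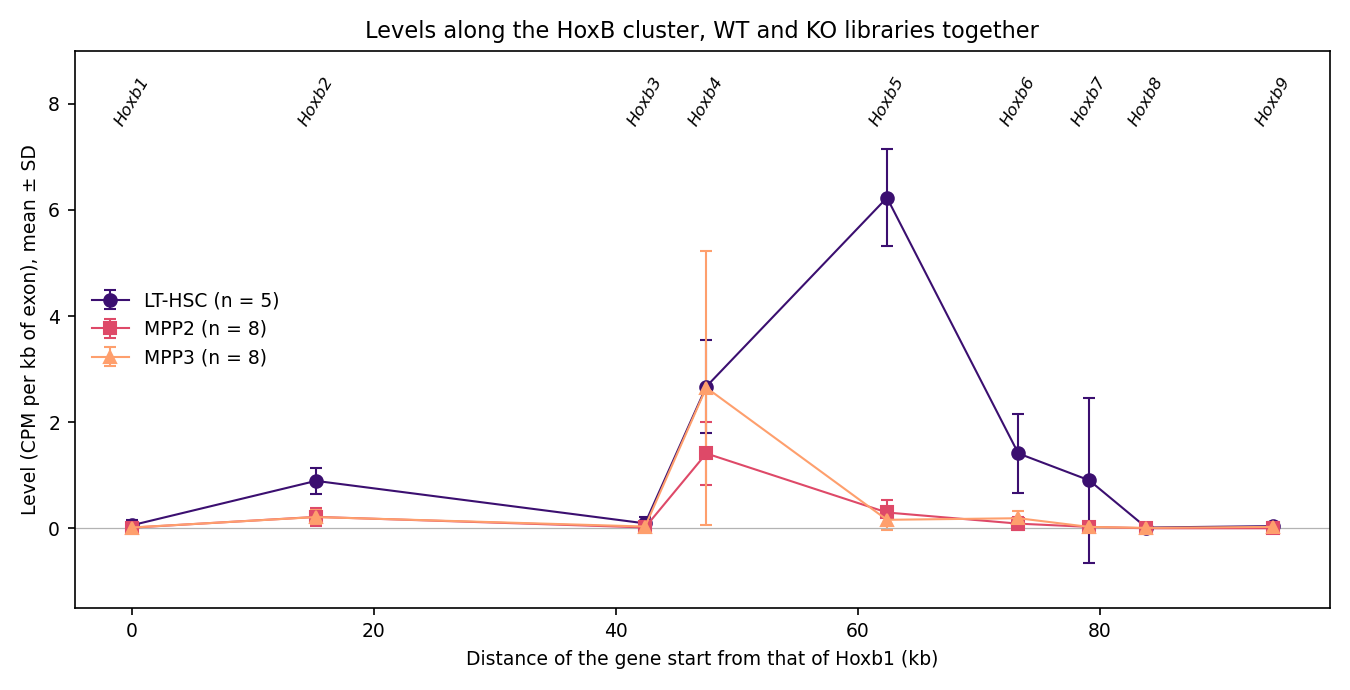
Mean level (CPM per kb of exon, with SD) of Hoxb1 to Hoxb9 against the distance of the gene start from that of Hoxb1 (kb), in LT-HSC, MPP2 and MPP3 with WT and KO together. The LT-HSC line peaks at Hoxb5 with 6.23, and the MPP2 and MPP3 lines peak at Hoxb4 with 1.41 and 2.65.

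Of the 7 other genes of the locus, 3 were tested. Hoxb5os, a non-coding transcript antisense to Hoxb5, was 3.66 to 6.45 CPM in LT-HSC, 0 to 2.94 CPM in MPP2 and 0.249 to 2.4 CPM in MPP3. Its log2 fold change was 3.24 ± 0.86 against MPP2 (edgeR adjusted p = 0.0262, kept in 9 of 13 omissions) and 2.49 ± 0.84 against MPP3 (edgeR adjusted p = 0.0903). Hoxb3os was not called, at 1.44 and 1.41 (edgeR adjusted p = 0.271 and 0.337), with the reserve on overlapping exons given above. Of 9 flanking genes tested, 1 was lower in LT-HSC than in MPP2 and none higher (11.1%, where 7.82% of all genes were called). It was Atp5g1, a subunit of the mitochondrial ATP synthase, at -0.78 ± 0.20 (edgeR adjusted p = 0.0227).

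Loss of Phf6 changed no HoxB gene past the threshold in any population, where edgeR called 1, 3 and 2 of 21100 genes in LT-HSC, MPP2 and MPP3 (0.00474%, 0.0142% and 0.00948%). At an unadjusted p under 0.05 the members numbered 0, 0 and 1 in the same order, against 513, 1417 and 1185 of 21100 genes. DESeq2, limma voom and every other alternative run also called 0 members in each. Hoxb5 in MPP2 was 1.36 ± 0.346 CPM in WT and 0.294 ± 0.339 CPM in KO (SD, n = 4 each), from 138 and 31 counts. The WT and KO libraries did not overlap, as for 1.08% of all genes that were lower in every KO library, and the log2 fold change was -2.16 ± 1.14 (edgeR adjusted p = 0.779). It kept its sign in all 18 alternatives, from -2.87 to -1.74, and its adjusted p was 0.532 to 0.998. The 7 B and plasma cell markers summed to 46.1 to 10115 CPM in WT MPP2 and 38.1 to 44857 in KO MPP2, and their part in the difference was not tested; without the 3 libraries that stand apart it was -1.80. In MPP3 the log2 fold change of Hoxb5 was -1.91 ± 1.19 (edgeR adjusted p = 0.953), and 13 of the 14 KO counts came from KO MPP3 replicate 2. In LT-HSC it was -0.04 ± 1.35 (adjusted p = 1).

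In LT-HSC, Hoxb4 and Hoxb6 were lower in each KO library than in either WT library, as were 10.8% of all genes. Hoxb4 was 8.64 ± 0.155 CPM in WT (SD, n = 2) and 5.68 ± 2.19 in KO (n = 3), and Hoxb6 was 4.18 ± 1.05 and 1.83 ± 0.59. The log2 fold changes were -0.61 ± 0.68 and -1.19 ± 1.68, with edgeR adjusted p of 1 for both. In MPP3, Hoxb4 had the one unadjusted p under 0.05, with a log2 fold change of 1.18 ± 0.54 (edgeR adjusted p = 0.88), which was -0.05 once the 3 libraries that stand apart were left out. Each of the 6 members tested changed the sign of its difference between KO and WT under some alternative in at least 1 population. The differences that kept their sign in all alternatives run were those of Hoxb4 and Hoxb6 in LT-HSC and of Hoxb5 in MPP2 and MPP3. Hoxb7 is not listed for MPP3, where it had 0 counts in KO and 8 in WT. Both genotypes had 0 counts in the MPP3 libraries of high title number, so no sign could be read there.

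TALE cofactors and regulators of Hox genes were read from lists. Of 8 TALE genes tested, 2 were higher and 1 lower in LT-HSC than in MPP2 (37.5% called, against 7.82% of all genes), with a median log2 fold change of 0.46 where that of all genes was -0.03. Against MPP3, 3 were higher and 0 lower (37.5%, against 6.41% of all genes). The median there was 1.11, where that of all genes was -0.04. The mean level of Meis1, a HOX partner needed by stem cells, was 410 CPM in LT-HSC against 264 for MPP2 and 216 for MPP3, with log2 fold changes of 0.66 ± 0.16 and 0.95 ± 0.16 (edgeR adjusted p = 0.0164 and 0.000893). Meis2 was 2.38 CPM in LT-HSC against 0.0629 and 0.0681 (5.34 ± 1.32 and 5.42 ± 1.33, edgeR adjusted p = 0.017 and 0.0168), and Pbx4 was lower than in MPP2 (-0.84 ± 0.23, adjusted p = 0.0291). The call of Pbx4 was kept in 6 of 13 omissions of 1 library and those of Meis2 in 12 of 13. None of the 8 was called between KO and WT.

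Of 29 regulators tested, 3 were higher and 3 lower in LT-HSC than in MPP2, and 0 higher and 2 lower than in MPP3. These are 20.7% and 6.9% of the list, against 7.82% and 6.41% of all genes, so the share called against MPP3 was near that of all genes. Those higher than in MPP2 were Rarb and Rarg, receptors for retinoic acid, and Cbx7, a Polycomb subunit, at log2 fold changes of 8.61 ± 1.74, 2.19 ± 0.56 and 1.15 ± 0.33 (edgeR adjusted p = 0.00629, 0.0221 and 0.0379). Ezh2, the Polycomb methyltransferase of histone H3, was lower than in both, at -0.80 ± 0.14 and -0.51 ± 0.14 (edgeR adjusted p = 0.0017 and 0.0306). Nfyb, a subunit of a CCAAT-binding factor, and Dpy30, a subunit of histone methyltransferase complexes, were lower than in MPP2 at -0.83 ± 0.17 and -0.58 ± 0.14 (edgeR adjusted p = 0.00414 and 0.0123), and Usf1, an E-box factor, was lower than in MPP3 at -0.89 ± 0.25 (edgeR adjusted p = 0.0407). Rarg, Cbx7 and Dpy30 were named after their values were seen. Of 13 omissions of 1 library, Cbx7 and Usf1 were kept in 4 and Ezh2 against MPP3 in 7. Hoxa9 of the HoxA cluster had mean levels of 139 CPM in LT-HSC, 64.2 CPM in MPP2 and 154 CPM in MPP3, higher in LT-HSC than in MPP2 (1.22, edgeR adjusted p = 0.0139) and not called against MPP3 (-0.13, a sign that turned in 3 alternatives).

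Among the genes whose log CPM over the 21 libraries was most like that of Hoxb5, of 8987 compared, were Myct1 (Pearson r = 0.938) and Bex1 (0.908). Those most like Hoxb4 were Zranb1 (0.882), Hnrnph3 (0.871) and Yy1 (0.868). Among those most like the mean of the 6 members tested were Ece1 (0.919), Myct1 (0.915), Itsn1 (0.913), Samd12 (0.892), Ifitm1 (0.878), Cish (0.876) and Gimap5 (0.874). By rank correlation (Spearman rho) the order moved. Myct1 ranked 1 and Bex1 4 for Hoxb5, and Zranb1, Hnrnph3 and Yy1 ranked 9, 32 and 12 for Hoxb4. For the mean, Myct1, Ifitm1 and Itsn1 ranked 1, 6 and 7. Samd12, Gimap5, Ece1 and Cish ranked 27, 30, 62 and 146. The values of both kinds describe likeness over libraries that share populations and depth, with no test.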

How the data were processed

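The authors deposited 1 table of raw counts, 54446 gene IDs by 21 columns. The submitters' processing notes name STAR and mm10. No source used here gives the counting program, its strand setting or the annotation release. IDs without version were matched to GENCODE M21 (54409 matched, 37 did not). All 21 libraries entered 1 robust quasi-likelihood fit with 1 mean per group and TMM factors (edgeR 4.0.16, R 4.3.3). The filter filterByExpr with a minimum count of 10 kept 21100 genes. The 15 comparisons were adjusted by Benjamini-Hochberg over all genes tested, with a threshold of 0.05. Alternatives used DESeq2 1.42.0, limma 3.58.1 voom with quality weights, other scalings, filters, blocks and subsets, and each library left out. The edgeR script was tested on simulated data.

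The text names the members, up to 3 genes of smallest p per list and comparison (others are said to be named later), and the 8 and 3 genes most alike in log CPM (prior count 2) among those with a mean of at least 10 CPM, predicted genes passed over. Some genes and sequences that these rules select are not reported here. The members and lists were chosen with earlier results of these data known. Floors use 3 counts. Same-numbered KO and WT libraries deviated together in MPP2 (correlation 0.207 to 0.282 over 4 pairs), and more weakly in MPP3 (0.0807 to 0.141). Differently numbered pairs ran from -0.278 to 0.256 in MPP2 and from -0.153 to 0.148 in MPP3. The highest of these paired WT replicate 3 with KO replicate 4, which both have high title numbers. In LT-HSC the 2 WT libraries deviate from their mean as mirror images, so the correlations (0.039 to 0.0417 over 2 same-numbered pairs) cannot show a pairing. Between populations, same-numbered libraries of MPP2 and MPP3 correlated at 0.0537 to 0.405 in KO and 0.0654 to 0.136 in WT, over 4 pairs each. Differently numbered ones gave -0.319 to 0.136 and -0.104 to 0.0691. Same-numbered KO LT-HSC gave 0.0515 to 0.13 with MPP2 and -0.014 to 0.138 with MPP3, over 3 pairs each. Differently numbered ones gave -0.162 to 0.148 and -0.111 to 0.12. The main fit holds no block for the replicate number. No label says what the replicate numbers share. The labels do not say that libraries are separate animals, so p-values measure the spread between libraries. Libraries were sorted into low and high title numbers at 100, a split the labels do not explain. The LT-HSC libraries are uneven on it, with 54 and 61 in WT and 57, 64 and 212 in KO.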

Additional observations from a re-analysis of the deposited data

Results flagged for a closer look

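In 24 groups of 4 libraries tested for a value far from the rest, 5 values stood apart. Chance flags about 1 in 20 groups of continuous values, a rate that does not hold for counts this low. For 2 of the 5, both of Hoxb7 in MPP2, the other libraries were at 0, so that any count above 0 would have stood apart. Hoxb3 was 0.512 CPM and Hoxb5 0.74 CPM in KO MPP3 replicate 2, from 9 and 13 counts, with the next highest libraries at 0.0711 and 0.0434 CPM. Hoxb6 was 0.581 CPM and Hoxb7 0.194 CPM in KO MPP2 replicate 1, from 9 and 3 counts, with the next highest at 0.0405 and 0 CPM. Hoxb7 was 0.122 CPM in WT MPP2 replicate 2, from 3 counts, with the other libraries at 0. KO MPP3 replicate 2 held 10.3% rRNA-like counts and KO MPP2 replicate 1 held 45.8% immunoglobulin counts; their part in these values was not tested.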

How the results depend on the processing

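The calls of Hoxb5 in LT-HSC against MPP2 and MPP3, both genotypes averaged, held in all alternatives run, with log2 fold changes of 4.30 to 5.35 and 4.76 to 8.30. Numbers called over all genes also moved widely between alternatives, by the ranges at the end of this section. The member numbers below are not set against the share of all genes in the same alternative. A method that calls more genes of every kind would raise them too. Numbers of HoxB members called moved as follows, where the cause was not tested. With limma voom they were 5 and 4 of 6 for LT-HSC against MPP2 and MPP3, 2 and 3 in WT alone, and 3 and 2 in KO alone. With DESeq2 they were 1 and 1 in WT alone, 2 for KO LT-HSC against KO MPP3 and 1 for KO MPP2 against KO MPP3, Hoxb4. With only the groups compared they were 1 for LT-HSC against MPP3, 1 and 2 in WT alone, and 0 for KO LT-HSC against KO MPP2. With low title numbers only they were 1 and 1 with genotypes averaged and 0 and 0 in KO alone, and with high title numbers only 0 and 0 in KO alone. The term for title number gave 2 for KO LT-HSC against KO MPP3. Leaving out the 3 libraries richest in immunoglobulin or rRNA-like counts together, chosen after seeing the data, they were 1 for MPP2 against MPP3, Hoxb5, 1 and 1 in WT alone and 2 and 2 in KO alone. For LT-HSC against MPP3 the replicate block gave 1. A block by genotype and replicate number also gave 1, with KO LT-HSC replicate 3 as number 3 or as number 4. The labels name no mice, and number 4 was chosen after seeing the data. The replicate block changed no other number of members called. Leaving out 1 library gave 1 to 3 for LT-HSC against MPP2, 1 to 2 against MPP3 and 0 to 1 for KO LT-HSC against KO MPP2.

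Log2 fold changes that turned sign were all ones that missed the threshold. With the replicate block these were Hoxb4 in LT-HSC against MPP3 (-0.09), Hoxb2 in MPP2 against MPP3 (-0.18), Hoxb2 and Hoxb5 between KO and WT LT-HSC (0.41 and 0.27), and Hoxb3 between KO and WT MPP2 (-0.06) and MPP3 (-0.17). With the block by genotype and replicate number they were Hoxb4 in LT-HSC against MPP3 (-0.06) and Hoxb2 in MPP2 against MPP3 (-0.05). With KO LT-HSC replicate 3 as number 4 they were Hoxb2 in MPP2 against MPP3 (-0.04) and the Hoxb4 KO effect in LT-HSC against that in MPP2 (0.11). With the term for title number they were Hoxb4 in LT-HSC against MPP3 (-0.05), Hoxb5 between KO and WT LT-HSC (0.45) and Hoxb3 between KO and WT MPP2 (-0.15). With low title numbers only they were Hoxb4 in LT-HSC against MPP3 (-0.19), Hoxb5 and Hoxb7 between KO and WT LT-HSC (0.04 and -1.57), Hoxb2 and Hoxb6 between KO and WT MPP2 (-0.67 and 1.52) and MPP3 (-0.28 and 0.57), and the Hoxb4 KO effect in LT-HSC against MPP2 (0.48). With high title numbers only they were Hoxb2 and Hoxb6 in MPP2 against MPP3 (-0.07 and 0.54) and Hoxb3, Hoxb4 and Hoxb3os between KO and WT MPP2 (-1.96, 0.29 and 0.44). Hoxb3 between KO and WT MPP3 (-0.92) and the Hoxb5 KO effect in MPP2 against MPP3 (3.29) turned as well. Hoxb7 had 0 counts in every MPP2 and MPP3 library of high title number. Its 3 values of 0.00 there compare 0 with 0 and show no turn of sign. With voom they were Hoxb2 and Hoxb7 in MPP2 against MPP3 (-0.36 and -0.28), Hoxb4 in KO LT-HSC against KO MPP3 (0.19), Hoxb2, Hoxb3 and Hoxb7 between KO and WT LT-HSC (0.01, -0.63 and -1.10), Hoxb3 and Hoxb7 between KO and WT MPP2 (-0.04 and -0.59), Hoxb3 between KO and WT MPP3 (-1.59), and the Hoxb5 KO effect in MPP2 against MPP3 (1.46). Without the 3 rich libraries they were Hoxb6 and Hoxb7 in MPP2 against MPP3 (0.63 and -0.61), Hoxb4 in KO LT-HSC against KO MPP3 (0.51), Hoxb7 between KO and WT MPP2 (-2.92), Hoxb4 between KO and WT MPP3 (-0.05), the Hoxb5 KO effect in MPP2 against MPP3 (5.45) and Hoxa9 in LT-HSC against MPP3 (0.17). With no filter Hoxb3 between KO and WT MPP2 was -0.03, and with RLE factors and with DESeq2 Hoxb2 in MPP2 against MPP3 was -0.00.

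Leaving out 1 library moved log2 fold changes across 0 for Hoxb4 in LT-HSC against MPP3 (-0.01 to 0.62) and in KO LT-HSC against KO MPP3 (-1.08 to 0.19), and for Hoxb2 (-0.44 to 0.26) and Hoxb7 (-0.62 to 1.54) in MPP2 against MPP3. Between KO and WT it did so for Hoxb2 (-0.52 to 0.17), Hoxb5 (-0.22 to 0.06) and Hoxb7 (-1.62 to 2.62) in LT-HSC, for Hoxb2 (-0.50 to 1.06), Hoxb3 (-1.14 to 1.13), Hoxb6 (-2.58 to 1.15) and Hoxb7 (-2.88 to 3.27) in MPP2, and for Hoxb2 (-0.09 to 0.79) and Hoxb3 (-0.25 to 0.66) in MPP3. It did so too for the Hoxb4 KO effect in LT-HSC against MPP2 (-0.56 to 0.00), the Hoxb5 KO effect in MPP2 against MPP3 (-0.83 to 3.15) and Hoxa9 in LT-HSC against MPP3 (-0.30 to 0.05).

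Over all genes the number called ranged from 744 to 3988 (1649 as reported) for LT-HSC against MPP2, from 950 to 3415 (1353) against MPP3 and from 173 to 2578 (1450) for MPP2 against MPP3. In WT alone it ranged from 43 to 1448 (133), from 168 to 1656 (232) and from 9 to 1074 (253), and in KO alone from 116 to 1738 (381), from 375 to 1538 (558) and from 6 to 931 (187). Between KO and WT it ranged from 0 to 30 (1) in LT-HSC, from 0 to 45 (3) in MPP2 and from 0 to 50 (2) in MPP3, and for the differences of KO effects from 0 to 26, 0 to 27 and 0 to 13 (0 each). Low counts limit Hoxb3, Hoxb7 and Hoxb8 in every population, apart from Hoxb3 and Hoxb7 in KO LT-HSC replicate 3. They also limit Hoxb2, Hoxb5 and Hoxb6 in the progenitors.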
